A study of Mus musculus with 1 sample.

Results

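The genes described here encode the TREM2 receptor and relatives of it, the adaptors DAP12 and DAP10, and proteins that carry or restrain TREM2 and DAP12 signalling. They were chosen by name and function, with no rule on their values, and comprise 3 receptors (Trem2, Trem1, Treml2), 2 adaptors (Tyrobp, which encodes DAP12, and Hcst, which encodes DAP10), a kinase (Syk), its effectors Plcg2 and Vav1, and the phosphatases Ptpn6 and Inpp5d. All 10 symbols matched 1 row each of the 23282 rows of the table. The RNA came from primary mixed glia of the ventral midbrain (VM) of ICR(CD-1) outbred mice at postnatal day 5, grown in serum and passaged once they neared confluence. The study examined the kinase SGK1 and its inhibitor GSK650394, and the library described here was its control, which the study's legends describe as treated with the vehicle DMSO. It was the 1 library analysed. Glia given the inhibitor were not analysed here, so there was no contrast to make and no replicate from which to estimate an error. How many animals or cultures were pooled was not given in the sources used here.

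TREM2 is a surface receptor of microglia and other macrophages that binds lipids, lipoproteins and debris. It has almost no signalling tail and relies on DAP12, whose immunoreceptor tyrosine-based activation motif (ITAM) is phosphorylated by Src family kinases and then recruits SYK. SYK in turn acts through phospholipase C gamma and VAV exchange factors, while the phosphatases SHP-1 and SHIP1 oppose the pathway. In brain, TREM2 is known for its part in phagocytosis and in the response of microglia to injured or lipid-rich tissue.

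The members fell into a high and a low set with none between. Trem2, Tyrobp, Syk, Plcg2, Vav1, Ptpn6 and Inpp5d had normalized read counts from 4652 to 12215, whereas Trem1, Treml2 and Hcst had values from 41 to 64. The high set stood above 93.6% to 98.2% of the genes detected in this library, and the low set above 12.9% to 17.7% of them. A gene was called detected at a value of 10 or more. By that rule 10 of 10 members were detected, against 67.2% of all rows. At a value of 100 or more the count was 7 of 10, against 51.6% of all rows.

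**Figure D1:**
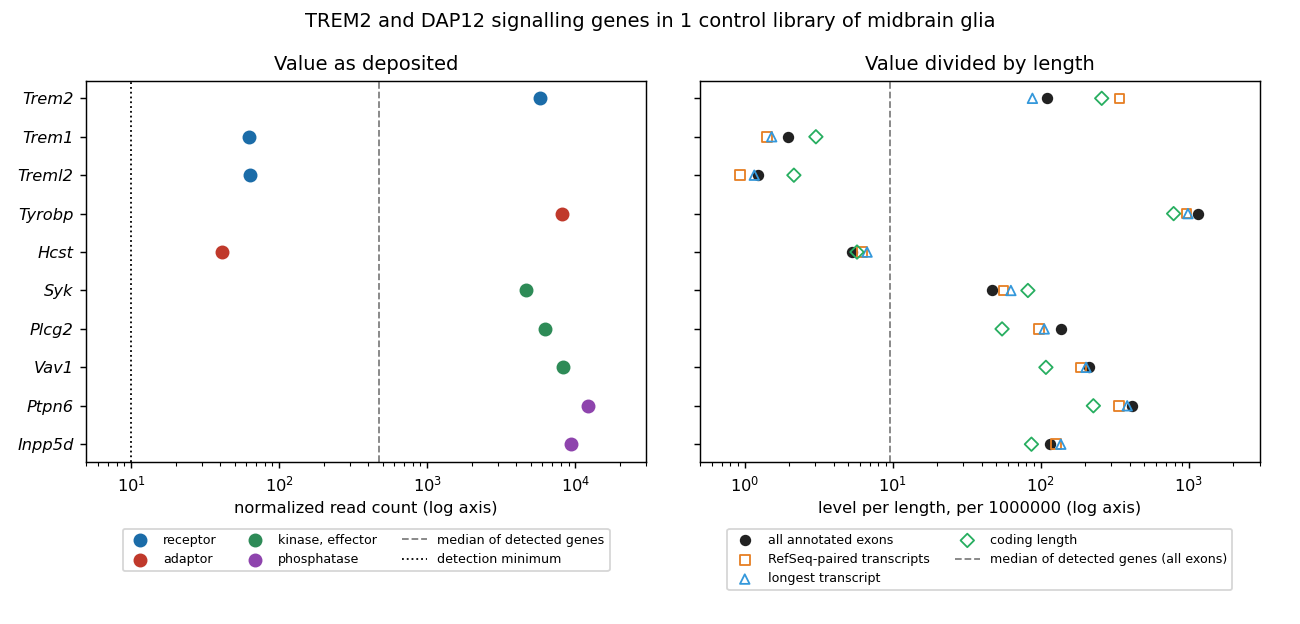
The left panel shows the normalized read count of each of the 10 genes on a log axis, colored by role, with the detection minimum of 10 and the median of detected genes, 469. The right panel shows the level per length, per 1000000, for 4 definitions of gene length; each high gene lies to the right of the dashed median of detected genes (9.65) and each low gene to the left under all 4 definitions.

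A longer transcript yields more reads, so the split above describes the values as deposited, and ratios between genes were taken per length. Each value was divided by the length of all annotated exons of the gene and scaled so that all rows summed to 1000000. This level per length had a median of 113 over the 10 members and 9.65 over the 15648 detected genes. The high set had levels from 46.8 to 1147, above 82.4% to 99.3% of detected genes. For the low set the levels were 1.23 to 5.35, above 13.9% to 37.0%. A second length used only the transcripts paired with a RefSeq accession, which is closer to the annotation the authors counted on, and gave medians of 112 and 9.86. In 1 bulk library, fewer cells of a type and less RNA per cell cannot be told apart, so these levels describe the culture as a whole.

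Among the receptors, Trem2 (chromosome 17, 48346401 to 48354147 in GRCm38, plus strand) had a value of 5801, above 95.2% of detected genes. Its level per length depended on the gene model. All annotated exons of Trem2 cover 4946 bases, including a transcript of 4784 bases with retained introns, and gave a level of 110.5. The 2 RefSeq-paired transcripts cover 1143 bases and gave a level of 341. Trem2 was thus sixth of the 10 members by the first length and second by the other.

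Trem1, which encodes an amplifier of inflammatory responses known from neutrophils and monocytes, had a value of 63 (chromosome 17, 48232768 to 48246924). Treml2, a relative in the same gene cluster, had a value of 64 (chromosome 17, 48299498 to 48312533). Their levels per length were 1.98 and 1.23, above those of 20.4% and 13.9% of detected genes. Per length, Trem2 was 55.8 times Trem1 and 90.1 times Treml2, and with RefSeq-paired transcripts the ratios were 241 and 365.

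The TREM genes lie side by side, so their values could be read along the chromosome. Trem1, Trem3, Treml4, Treml2, Trem2 and Treml1 occupy 134 kb in that order, all on the plus strand. Trem3 and Treml4 were each at 22 and Treml1 was at 66. The 5 genes other than Trem2 thus ran from 22 to 66 and summed to 237, and Trem2 held 96.1% of the summed value of the 6. Treml6 had no row.

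**Figure D2:**
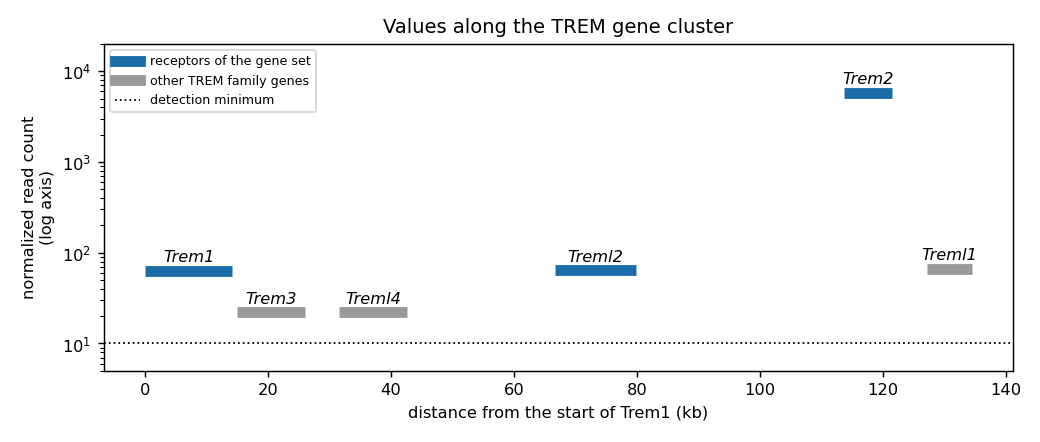
Each bar marks the extent of a TREM family gene, in kb from the start of Trem1 on the horizontal axis, at its normalized read count on a log axis. Trem2 at 5801 stands apart from its 5 neighbors, which lie between 22 and 66, above the detection minimum of 10.

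The adaptors were far apart. Tyrobp (chromosome 7, 30413760 to 30417585, plus strand) had a value of 8122 and, with exons of only 667 bases, a level per length of 1147, above 99.3% of detected genes. Hcst (chromosome 7, 30417712 to 30419854, minus strand), whose product binds phosphoinositide 3-kinase and is best known as the partner of the lymphocyte receptor NKG2D, had a value of 41 and a level of 5.35, above 37.0% of detected genes. The 3′ ends of these genes face each other across 126 bases. Per length, Tyrobp was 214 times Hcst, and 155 times with RefSeq-paired transcripts.

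Tyrobp was the highest member under each of the 4 lengths. Its level exceeded that of Trem2 10.4-fold with all exons, 11.2-fold with the longest transcript, 3.06-fold with the coding length and 2.84-fold with RefSeq-paired transcripts. The direction was therefore the same with each length, but the size of the excess rested on the Trem2 gene model.

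Other ITAM adaptors gave a reference for Tyrobp. Fcer1g, the gamma chain shared by Fc receptors, had a value of 11552 and a level of 1245, so that Tyrobp was at 0.921 of it and the adaptors were close. Of the 7 adaptors listed other than the members, 3 were detected. Cd3d was at 202 (level 10.5) and Cd247 at 89 (level 1.57), while the B cell receptor chain Cd79b was listed at 0. Of the Cd247 exon length, 56.4% overlaps Pou2f1 on the opposite strand, and the strand setting of the counting is unknown.

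The kinase and its effectors were all in the high set. Syk (chromosome 13, 52583173 to 52648792), the tyrosine kinase that docks on phosphorylated ITAMs, had a value of 4652, the lowest of the 7 high genes, and a level per length of 46.8. It was also the lowest of the 7 per length, except with the coding length, where Plcg2 (54.8) was below Syk (81.9). Plcg2 (chromosome 8, 117498291 to 117635142), which cleaves membrane phosphoinositides to raise calcium, had a value of 6260 and a level of 137. Vav1 (chromosome 17, 57279100 to 57328031), an exchange factor that activates Rac, had a value of 8268 and a level of 211.

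The opposing phosphatases had the highest values as deposited, but not the highest levels per length. Ptpn6 (chromosome 6, 124720707 to 124738714, minus strand) encodes SHP-1, a tyrosine phosphatase recruited by inhibitory receptors. It had a value of 12215 and a level per length of 411. Inpp5d (chromosome 1, 87620312 to 87720507) encodes SHIP1, a lipid phosphatase that removes a phosphate from PIP3. It had a value of 9306 and a level of 115.

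Ptpn6 was thus 8.77 times Syk per length, 6.001 times with RefSeq-paired transcripts and 2.77 times with the coding length. The exons of Ptpn6 overlap the antisense gene Gm20531 over 195 bases (6.96% of its exon length), and no other member overlaps an annotated exon of another gene. In the high set, Tyrobp stayed highest and Ptpn6 next to it or the third under each length, whereas Plcg2 and Inpp5d exchanged places between lengths, so the order of these neighbors is not settled by these data.

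Each signalling member has a close relative of similar function, and the member was higher in every such pair under each length. The ratios below use all exons unless stated. Syk was 99.1 times Zap70, the relative used by T cells, whose value was 15, and 305 times with the coding length. Vav1 was 24.7 times Vav2 (value 628) and 26.9 times Vav3 (value 500), and 13.5 and 16.6 times with the coding length. Plcg2 was 15.9 times Plcg1 (value 720) per length, and 8.97 times with RefSeq-paired transcripts.

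Of the phosphatases, Ptpn6 was 11.7 times Ptpn11 (SHP-2, value 2801), and 4.36 times with the coding length. Inpp5d was 2.46 times Inppl1 (SHIP2, value 3180). The Inpp5d pair had the smallest ratio among the pairs of signalling genes under each length. Exons of Inppl1 overlap the antisense gene Gm10602 over 18.8% of their length. Of the 7 pairs of a member with a gene outside the set, the member was higher in 6, the exception being Tyrobp against Fcer1g.

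**Figure D3:**
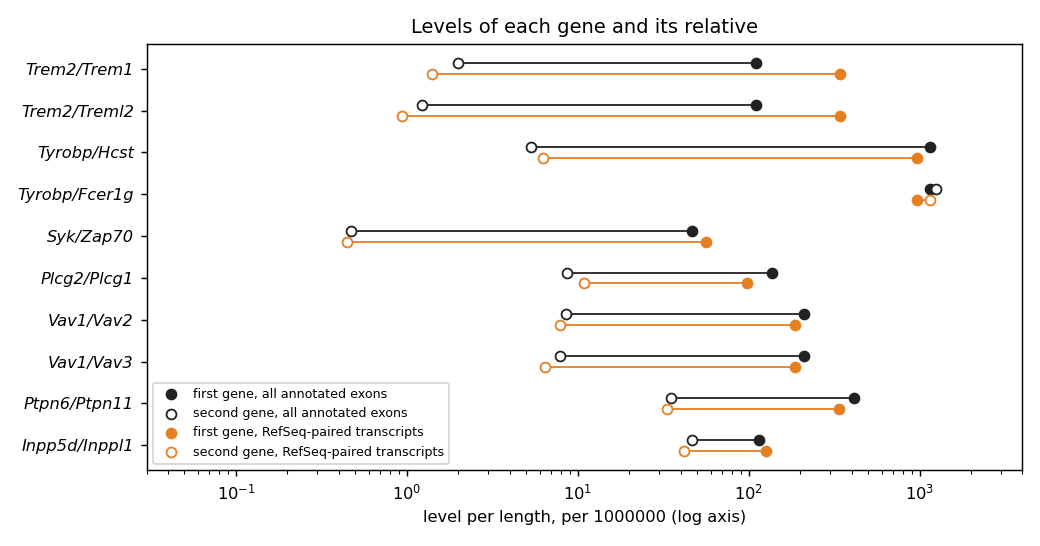
Each row joins the level per length, per 1000000, of a gene (filled) to that of its relative (open) on a log axis, with all annotated exons in black and RefSeq-paired transcripts in orange. The gaps run from 214-fold for Tyrobp and Hcst to 2.46-fold for Inpp5d and Inppl1 with all exons, and Tyrobp and Fcer1g lie side by side at 1147 and 1245.

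The remaining genes of the pathway were taken from lists ordered by role. In all, 63 of 65 listed genes had a row and 55 of the 63 were detected. Of the 6 ligands and sheddases of TREM2, 5 were detected. The lipid carrier Apoe had a level per length of 44516, which was 403 times that of Trem2 (127 times with RefSeq-paired transcripts). Lgals3, which encodes galectin-3, had a level of 467, and Clu, which encodes an apolipoprotein, of 258. Apoa1, the gene of another apolipoprotein, known mainly from liver and intestine, was at a value of 7 and was not detected. The proteases that shed the TREM2 ectodomain, Adam10 and Adam17, had levels of 93.49 and 56.96.

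Of 9 other receptors that pair with DAP12 or act with it and that had a row, 8 were detected. Csf1r, the receptor for the microglial growth factor CSF1, was highest with a level of 513, which was 4.64 times that of Trem2 (1.60 times with RefSeq-paired transcripts). Clec5a, a C-type lectin, had a level of 83.2 and Plxna1, a semaphorin receptor, of 39.8. The lowest detected was Pilrb1 at a value of 22, and the NKG2D gene Klrk1, at a value of 2, was not detected. The genes for NKG2D and for DAP10 were thus both low in this library. Sirpb1a and Sirpb1b, at 43 and 67, are close copies whose reads may be shared, and Sirpb1c had no row. The median over the 9 receptors was 20.6.

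Of the 8 Src family kinases, which phosphorylate ITAMs, 7 were detected. Lyn, known for high expression in myeloid cells, had a level of 145, and the broadly expressed Fyn had a level of 49.7. The T cell kinase Lck was at a value of 66 (level 2.12), and Blk, known from B cells, was listed at 0.

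Downstream of SYK, 14 of 15 linkers and effectors were detected, with a median level of 35.7. With all exons, the adaptor Grb2 was highest with a level of 123, followed by the kinase Prkcd with 83.8 and the GTPase Rac2 with 74.2. With RefSeq-paired transcripts the order turned, with Prkcd at 116 and Grb2 at 88.7. The lowest detected was the ubiquitin ligase Cbl with 5.69. The linkers differed within the list. Lat2 was at a value of 2034 and Lcp2, which encodes SLP-76, at 3240, whereas Lat, the linker of T cells, was at 7. Exons of Lat2 overlap Rfc2 on the opposite strand over 36.3% of their length.

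All 11 listed inhibitory phosphatases and regulatory receptors were detected, with a median level of 28.5. Sirpa, whose product recruits SHP-1 on binding CD47, had a level of 464. Lilrb4a, an inhibitory receptor, had a level of 189, or 510 with RefSeq-paired transcripts, and 35.3% of its exon length overlaps Gm49339, read in the same direction. With all exons Inppl1 followed with 46.8, and Dok2 was lowest with 7.05. With RefSeq-paired transcripts Ptprc (57.8) was above Inppl1 (42.0).

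Markers of microglia, astrocytes and other cell types were read on the same scale. The 12 microglia markers were all detected and had a median level of 226, with Spi1, the gene for the transcription factor PU.1, at 229. The 8 astrocyte markers were all detected, with a median of 64.5. With the coding length the microglia and astrocyte medians were 270 and 147, against 84.2 for the TREM2 and DAP12 genes. These medians do not measure the share of each cell type. By staining, the study describes its midbrain glial cultures as mostly GFAP-positive astrocytes, with a smaller share of Iba1-positive microglia. All 6 border macrophage markers were detected, with Mrc1 at a value of 7012, F13a1 at 543, Pf4 at 327, Cbr2 at 124, and Lyve1 and Cd163 each at 21. Members such as Syk, Vav1 and Ptpn6 are also expressed by blood leukocytes. Of 4 monocyte markers 1 was detected, Ccr2 at 39, and the other 3 were at 8 or less. Of 7 neutrophil markers 2 were detected, S100a8 at 129 (level 17.5) and Mpo at 11, and 4 were listed at 0. Of 6 T and NK cell markers with a row 1 was detected, Cd3d at 202 (level 10.5), with Cd2 and Nkg7 listed at 0. Of 4 B cell markers 1 was detected, Ms4a1 at 16. Of 4 mast cell markers 1 was detected, Kit at 22, and 3 were at 0. The part of other myeloid cells and leukocytes in the members' levels was not tested.

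**Figure D4:**
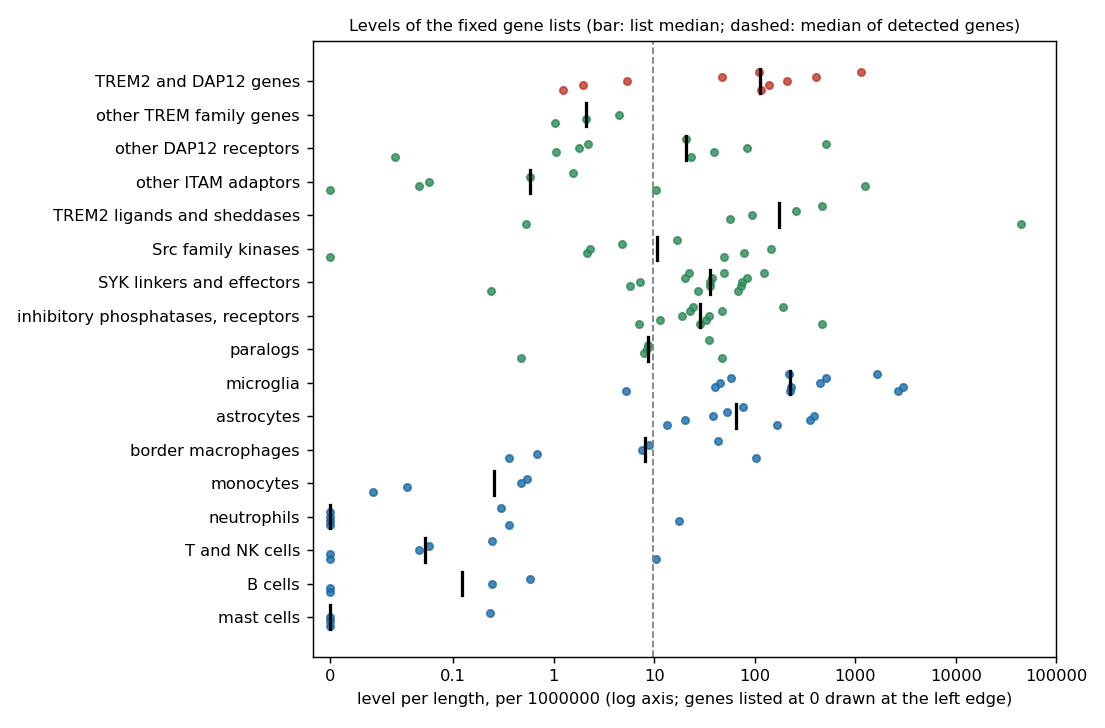
Each point is 1 gene at its level per length, per 1000000, on a log axis, with genes listed at 0 drawn at the left edge. The black bar is the list median and the dashed line the median of detected genes (9.65). The TREM2 and DAP12 genes (median 113) have a median between those of astrocytes (64.5) and microglia (226) with all exons. The medians of the monocyte, neutrophil, lymphocyte and mast cell lists lie at the left, with S100a8 (17.5) and Cd3d (10.5) to the right of the dashed line.

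The promoters were searched for the core of the PU.1 site, because Spi1 was expressed in the culture and PU.1 is known to drive many myeloid genes. This search was not among the planned results. The core GAGGAA was searched on both strands in the 250 bases before each start site of the RefSeq promoters (GRCm38.p6). Promoters of 8 members were matched, and Tyrobp and Treml2 were not among them. The core was found in 5 of the 8 (62.5%), against 25.9% of the 27025 genes with a promoter. It was found in promoters of both sets, since Trem1 held it and the high genes Ptpn6 and Plcg2 did not. For Syk, only the second of 2 start sites held it. The matches are shown for the members that held the core, with the core, or its reverse complement in Trem2, in capitals.
Trem2: agcctcctttccTTCCTCcctccctcacgc
Trem1: attttcagagaaGAGGAAactgaggtccca
Syk: tgtcttgcttgctgacactttGAGGAAaag
Vav1: gacagttacagtcacagaaGAGGAAgtggt
Inpp5d: ggtttctataatGAGGAAgttctgtgcagc
These stretches lie on the plus strand at chr17:48346349-48346378, chr17:48232565-48232594, chr13:52596852-52596881, chr17:57279070-57279099 and chr1:87620280-87620309. The matched core began 40 bases before the start site in Trem2, 162 in Trem1, 9 in Syk, 11 in Vav1 and 20 in Inpp5d. A match of letters is a description and not a binding site, and no binding was measured.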

How the data were processed

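RNA was extracted with Trizol and 1 control library was made with a SMARTER mRNA-Seq kit. According to the study's methods, reads were trimmed at a quality of 20, mapped to GRCm38/mm10 with STAR and counted on exons of RefSeq Release 105 genes with HTSeq-count. The methods add that FPKM were calculated, but the values used here were whole numbers that the legends call read counts, and were taken as not yet divided by length. The submitters' processing notes name TopHat and edgeR instead. The deposited score values were what the authors called normalized read counts made from those exon counts. They were not treated as raw counts, because the kind of normalization, strand setting and read depth were not given in the sources used here. The values summed to 27569507, and no counting interval or floor was given. A different normalization would move all levels, and a different gene model the levels per length.

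Lengths, coordinates and exon overlaps came from GENCODE M21 (GRCm38), which matched 98.4% of rows by current or older symbol. The 4 lengths were all annotated exons (main), the longest transcript, RefSeq-paired transcripts and coding sequence. No test was run, since there was 1 library. The scaling code was run on simulated data without noise and with known lengths, where 200 of 200 changed genes were recovered. That outcome was fixed by the setup, so it checks the arithmetic only and not the levels reported here. With 1 library no change was measured here, and which gene length is right was not tested. Members and lists were chosen with earlier results of these data known. All members and each gene of pathway lists of up to 6 were named, and in longer pathway lists the 3 highest, the lowest detected and those at 0. A few genes that this names are left out here. Other genes, among them the cell type markers and the undetected ones, were named after their values were seen. Python 3.11.15, numpy 2.4.6, pandas 2.3.3 and matplotlib 3.10.9 were used.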

Additional observations from a re-analysis of the deposited data

How the results depend on the processing

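The count of members detected was 7 at a minimum of 100. It was 10 at minima of 1 and 3 and with repeated symbols summed. Those settings could only keep it at 10, because all 10 members already passed the minimum of 10. The median level of the members stayed within 1.5 times its value of 113 with each other length and without the 10 highest genes in the sum. Taking the sum without Rn45s changed no member's level, so that check was uninformative. Leaving out members under the minimum could not move the median, because no member was under it. With no division by length the median was 219 per 1000000. The ratio of Tyrobp to Trem2 was 10.4 with all annotated exons. It was 1.40 with no division by length, 2.84 with RefSeq-paired transcripts and 3.06 with the coding length, with Trem2 moving more than Tyrobp between the lengths and Tyrobp more than Trem2 (from 1147 to 295) with no division. Of the 10 ratios taken among members and with their relatives, 9 were above 1 under each length and with no division. Single ratios moved by more than 1.5 times in 18 of 40 checks and single levels in 15 of 60, and no ratio changed its direction. RefSeq-paired lengths, coding lengths from the annotation and summed symbols were chosen after seeing the data. The planned coding length from protein sequences was not run. No paired analysis was possible because the data analysed held 1 library. The values carry no depth, and without a replicate each of them describes this library only.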

Other observations

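The genes of 2 marker lists were uneven in a way that touches the leukocyte readings, and these genes were singled out after their values were seen. Cd3d, a chain of the T cell receptor complex, was at 202, while its partners Cd3e and Cd3g, neighbors on chromosome 9, were each at 2. S100a8 was at 129, while S100a9, with which it forms the calprotectin complex of neutrophils, was at 2. No annotated exon of another gene overlaps Cd3d or S100a8, and nothing further was tested.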
